A study of Mus musculus with 6 samples.

Results

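Chemokine ligands are small secreted proteins that direct leukocytes through G protein-coupled receptors, and the 10 described here, Cxcl1, Cxcl2, Cxcl12, Cxcl16, Ccl2, Ccl3, Ccl4, Ccl5, Ccl6 and Ccl9, were followed in mouse leukemias with or without Runx1. They were chosen by symbol: every probe set that the platform's annotation gave to 1 of the 10 symbols was taken. That gave 17 probe sets of the 34958 with a single symbol, and 10 genes of 18194. In both groups C57BL/6 bone marrow had received the leukemia fusion gene MLL-ENL and was transplanted into congenic mice, whose leukemic cells were collected when the animals were moribund. The marrow had an excised Runx1 gene in the 3 arrays labelled Runx1-KO and an intact one in the 3 labelled Control. Each array measured 1 of 3 independent leukemias per genotype. The recombinase behind the excision, the ages of the animals and any sort of the harvested cells are not given in the sources used here.

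The names CC and CXC refer to the spacing of conserved cysteines near the start of the protein, and each ligand is read by a small set of receptors. Cxcl1 and Cxcl2 draw neutrophils through Cxcr2, Cxcl12 holds stem cells and immature myeloid cells in the marrow through Cxcr4, and Cxcl16 is a membrane-bound ligand of Cxcr6 that proteases shed. Ccl2 calls monocytes out of the marrow through Ccr2, while Ccl3, Ccl4 and Ccl5 attract monocytes and lymphocytes, and the rodent ligands Ccl6 and Ccl9 act through Ccr1. Many of these genes are induced by NF-kB, the transcription factor downstream of Toll-like receptors, interleukin-1 and tumour necrosis factor.

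Before the ligands, features of the arrays were checked. Median intensity, the deposited linear signal of a probe set, ranged from 24.4 to 25.99. A background limit was set on each array at the highest of 27 bacterial control probe sets, and 57.4% to 64.7% of genes exceeded it. The number of arrays, 3 per group, limited the precision. Runx1 itself was 1.70-fold brighter in the arrays labelled Runx1-KO (log2 difference 0.76 ± 0.25, SE, n = 3 per group, limma adjusted p = 0.322), and the position of its 6 probe sets relative to the excised part is not known here, so it did not check the labels. The Y-linked gene Eif2s3y gave 3.98 to 6.31 where the label was Runx1-KO and 638 to 707 where it was Control. Xist, an X-linked gene expressed in female cells, gave 1624 to 1895 in Runx1-KO. In Control 1, 2 and 3 it gave 331, 85.4 and 25.3, above background on each array. The source of the Xist signal in Control, highest in Control 1, was not tested. Sex and genotype therefore cannot be told apart in any value below. Runx1-KO 1 had a ratio of 3' to 5' Gapdh signal of 7.10 against 2.67 to 3.02 on the other arrays. Control 1 had a summed intensity of 4058 over 6 erythroid markers against 61.2 to 212 elsewhere. The 8 myeloid progenitor markers, Mpo and Elane among them, were above background on all 6 arrays.

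The 6 CC ligands were all dimmer on average in the arrays labelled Runx1-KO, whereas the CXC ligands went both ways, 2 lower and 2 higher. Some of these directions were not firm. The log2 differences of Cxcl12 (0.01 ± 1.10), Cxcl2 (-1.11 ± 1.40) and Ccl6 (-0.27 ± 0.60) were smaller than their SE and turned direction without Control 1. None of the 10 genes passed the test over all genes, limma with Benjamini-Hochberg adjustment at 0.05, which 0.0879% of the 18194 genes passed (0.033% higher and 0.055% lower in Runx1-KO). Of the 10, 8 had a log2 difference below 0, as had 50.8% of all genes. Of the 6 that were above background on every array, 4 had a log2 difference of -1 or less, against 3.1% of such genes. At an unadjusted p under 0.05 there were 5 lower genes and 1 higher gene among the 10, against 7.01% and 5.62% of all genes. The groups did not overlap, with Runx1-KO lower, for 5 of the 10, namely Cxcl16, Ccl3, Ccl4, Ccl5 and Ccl9, against 11.7% of all genes. They did not overlap in the higher direction for Cxcl1, against 9.17% of all genes. The median log2 difference was -0.96 over the 10 ligands and -0.01 over all genes. RNA came from bulk cells, where fewer cells of a type and less RNA per cell cannot be told apart.

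**Figure D1:**
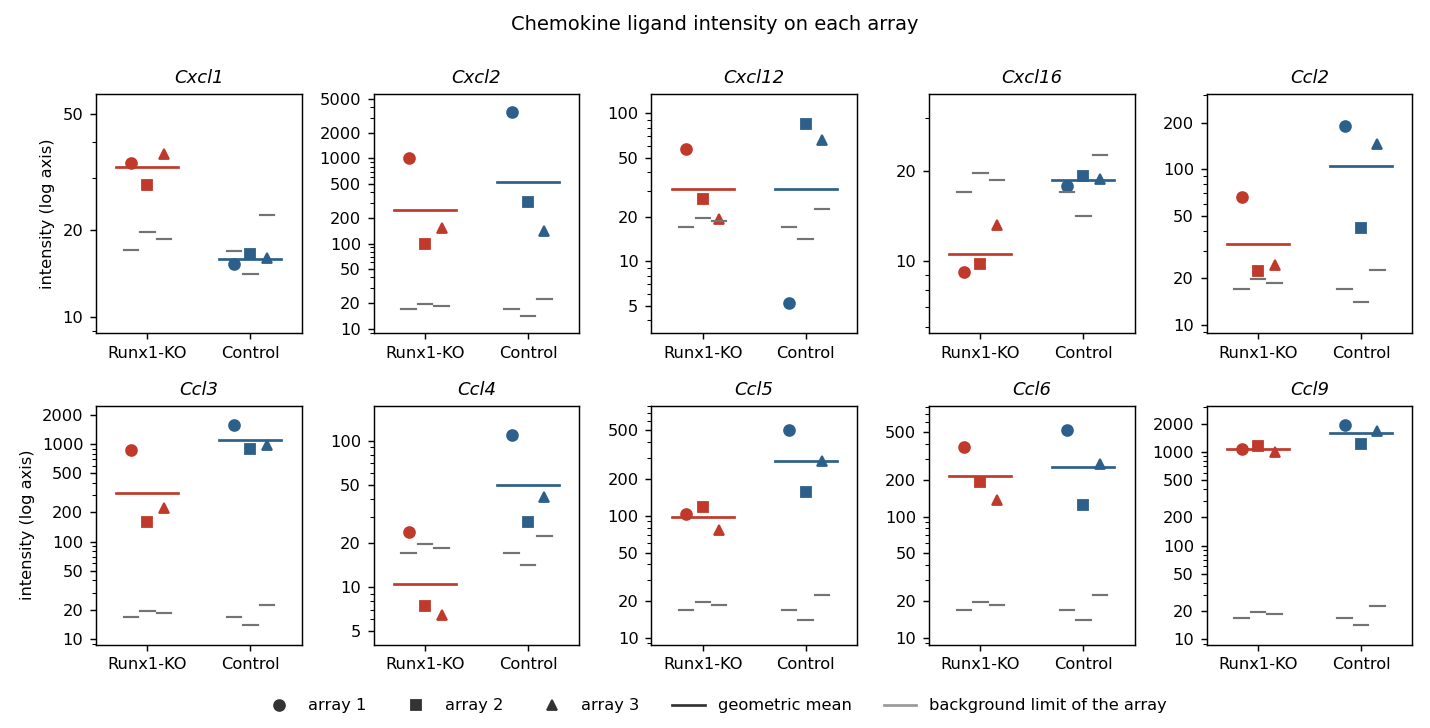
Intensity of the 10 chemokine ligands on each array, on log axes that differ between panels, with Runx1-KO arrays in red, Control arrays in blue, marker shape for the array number, a line for the geometric mean of each group and grey ticks for each array's background limit. Ccl3, Ccl4, Ccl5, Ccl9 and Cxcl16 lie lower in all 3 Runx1-KO arrays than in any Control array, Cxcl1 lies higher, and Cxcl2 is brightest on array 1 of both groups.

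Ccl3, which encodes MIP-1alpha, a chemoattractant for monocytes and lymphocytes that also restrains stem cell cycling, is first described with the sequence before its transcription start. The window is shown because, of the 6 ligand windows found, this 1 held TGTGGT, the core recognised by RUNX proteins, whose first base lay 122 bases before the start and is in capitals below. It covers the 250 bases before the start, on the minus strand of GRCm38.p6 at chr11:83649379-83649628, from RefSeq.
Ccl3: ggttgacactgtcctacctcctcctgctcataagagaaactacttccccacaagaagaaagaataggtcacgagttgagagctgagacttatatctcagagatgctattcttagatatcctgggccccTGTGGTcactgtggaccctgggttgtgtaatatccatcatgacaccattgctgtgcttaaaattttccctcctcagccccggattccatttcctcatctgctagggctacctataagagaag
TGTGGT, searched on both strands, was present in 14% of 32851 such windows, and a match of letters is not evidence of binding. RefSeq windows were found for 6 of the 10 ligands, Cxcl1, Cxcl2, Cxcl12, Ccl3, Ccl6 and Ccl9.

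Ccl3 (probe set 1419561_at) had an intensity of 866, 161 and 221 in Runx1-KO 1, 2 and 3 and of 1556, 899 and 991 in Control 1, 2 and 3. All Runx1-KO arrays lay below all Control arrays, but Runx1-KO 1 was close to Control 2 and was 4.60-fold brighter than the geometric mean of Runx1-KO 2 and 3. The log2 difference was -1.83 ± 0.65 (SE, n = 3 per group), or 3.56-fold lower (limma adjusted p = 0.342). By exact permutation of the arrays (two-sided, on log2 levels) p was 0.1 for each of the 6 ligands whose groups did not overlap, and 3 against 3 cannot give less.

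Ccl4 (1421578_at), the MIP-1beta gene that lies beside Ccl3 and often shares its induction, stood at 23.9, 7.44 and 6.47 in Runx1-KO 1, 2 and 3 and at 109, 28.0 and 40.9 in Control 1, 2 and 3. It was above background in 1 of 3 Runx1-KO arrays and in all 3 Control arrays. With the Runx1-KO arrays under their limit raised to it, Ccl4 was at least 2.43-fold lower. The fitted log2 difference, which takes the dim values as they are, was -2.25 ± 0.69 (n = 3 per group, limma adjusted p = 0.3002). In both groups array 1 was the brightest for Ccl3 and for Ccl4.

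Ccl5 (1418126_at), the RANTES gene, made by T and NK cells and by activated myeloid cells, had an intensity of 103, 117 and 76.9 in Runx1-KO 1, 2 and 3. In Control 1, 2 and 3 it was 500.3, 157 and 280.5. The Runx1-KO arrays were close together and all below the lowest Control array, while the Control arrays spread 3.18-fold. The log2 difference was -1.53 ± 0.44 (n = 3 per group, limma adjusted p = 0.287), or 2.88-fold lower, and it was -1.11 without Control 1.

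T and NK cell markers mostly lay lower beside Ccl5. Of 11 measured markers, 8 were lower in Runx1-KO with no overlap of the groups and 1, Nkg7, was higher, again set against 11.7% and 9.17% of all genes. Their summed intensity was 317 to 369 in the arrays labelled Runx1-KO and 393 to 515 in Control. Prf1 gave 182 of the 317 in Runx1-KO 1 and 245 of the 515 in Control 1. Only 2 of the 11 were above background on all 6 arrays, and Gzmb and Ncr1, both counted among the 8, were at background on all 6. Of the 8, Prf1 alone was above background on any Runx1-KO array (log2 difference -0.41 ± 0.20, n = 3 per group, limma adjusted p = 0.439). The part of these markers in the Ccl5 difference was not tested.

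Ccl2 (1420380_at), the monocyte chemoattractant MCP-1, was measured at 66.5, 22.1 and 24.2 in Runx1-KO 1, 2 and 3 and at 189.9, 42.1 and 147 in Control 1, 2 and 3. The groups overlapped, because Control 2 lay below Runx1-KO 1, and Runx1-KO 2 and 3 were just above their background limits of 19.6 and 18.6. The log2 difference was -1.68 ± 0.69 (n = 3 per group, limma adjusted p = 0.396), or 3.21-fold lower. Its receptor Ccr2 had an intensity of 106, 109 and 185 in Runx1-KO 1, 2 and 3 and of 349.9, 156 and 433 in Control, also with overlap (-1.15 ± 0.45, adjusted p = 0.370).

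Ccl9 and Ccl6 are adjacent ligands of Ccr1 that mouse myeloid cells make in abundance. The window before Ccl9 is shown because it held a match to the kappa B consensus of NF-kB, in capitals, whose first base in gene orientation lay 35 bases before the start. It is on the minus strand of GRCm38.p6 at chr11:83578637-83578886, from RefSeq.
Ccl9: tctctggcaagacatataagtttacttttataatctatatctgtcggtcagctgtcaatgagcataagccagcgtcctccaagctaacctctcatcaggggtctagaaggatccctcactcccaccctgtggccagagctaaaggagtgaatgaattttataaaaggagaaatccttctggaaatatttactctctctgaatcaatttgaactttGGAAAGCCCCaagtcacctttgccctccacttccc
The longest run of bases that the windows of Ccl6 and Ccl9 shared was 13 bases long, and the Ccl6 window held no match to that consensus.

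Ccl9 (1417936_at) varied least among the CC ligands. Its intensity was 1073, 1165 and 1000.4 in Runx1-KO 1, 2 and 3 and 1957, 1211 and 1680.2 in Control 1, 2 and 3, so the groups did not overlap although Control 2 was near Runx1-KO 2. The log2 difference was -0.56 ± 0.23 (n = 3 per group, limma adjusted p = 0.402), or 1.47-fold lower. A second probe set (1448898_at) gave 91.4, 231 and 177 in Runx1-KO and 498, 236 and 404 in Control, a larger difference of -1.22 ± 0.44 (adjusted p = 0.354 over all probe sets).

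Ccl6 (1417266_at) showed no such separation. It stood at 372, 192 and 137 in Runx1-KO 1, 2 and 3 and at 514, 124 and 271 in Control 1, 2 and 3, where the lowest and the highest arrays both belonged to Control. The log2 difference was -0.27 ± 0.60 (n = 3 per group, limma adjusted p = 0.884), and its second probe set (1420249_s_at) differed by 0.18 ± 0.41 in the other direction. Without Control 1 the first probe set also gave a positive difference, 0.22, and without Runx1-KO 3 one of 0.05. Ccr1, the receptor of Ccl6 and Ccl9, had an intensity of 121, 278 and 127 in Runx1-KO and of 275, 112 and 291 in Control (-0.35 ± 0.50, adjusted p = 0.807).

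Monocyte and macrophage markers mostly lay lower beside these CC ligands. Of 12 measured markers, 8 were lower in Runx1-KO without overlap and 0 were higher without overlap, against 11.7% and 9.17% of all genes. The summed intensity was 3013 to 3079 in the 3 arrays labelled Runx1-KO and 4878 to 6979 in the 3 Control arrays, with Control 2 the lowest of these. Of the 12, 7 were above background on every array, and C1qa, counted among the 8, was at background on every array. The part of these markers in the differences of the CC ligands was not tested.

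**Figure D2:**
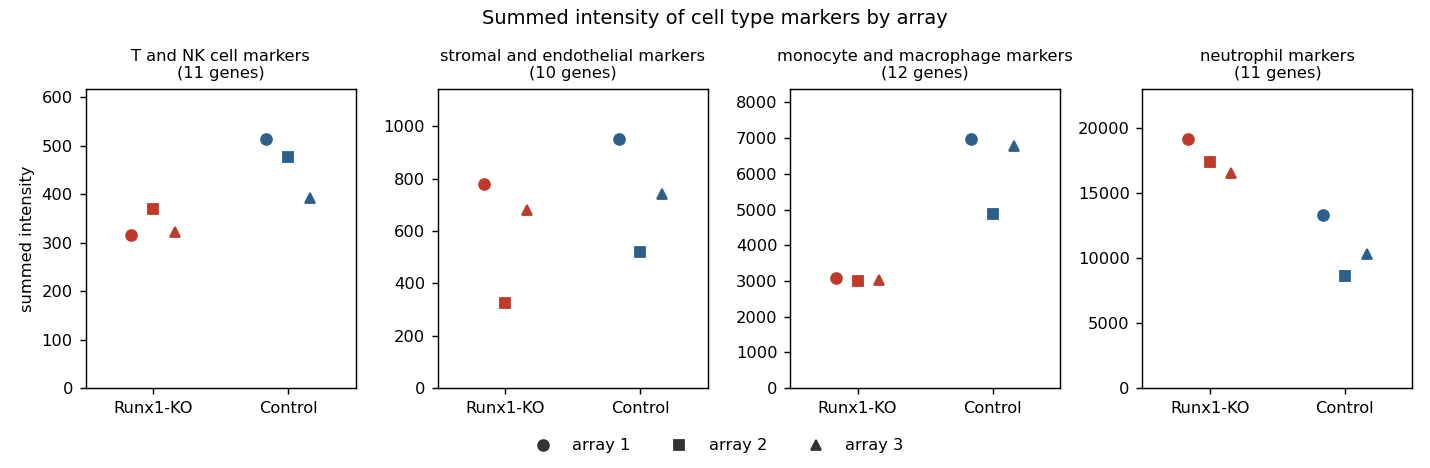
Summed linear intensity of 4 marker lists on each array, with Runx1-KO arrays in red, Control arrays in blue and marker shape for the array number. Monocyte and macrophage markers sum to 3013 to 3079 in Runx1-KO and 4878 to 6979 in Control, and neutrophil markers to 16578 to 19169.8 and 8626 to 13283.

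Cxcl1 and Cxcl2, adjacent genes for ligands of Cxcr2, did not show the same pattern as each other. Their windows are shown side by side because both held the same match to the kappa B consensus, in capitals, within the longest run that they shared, of 14 bases. The first base of the match lay 71 bases before the start of Cxcl1 and 97 before that of Cxcl2. Both are on the plus strand of GRCm38.p6, at chr5:90890995-90891244 for Cxcl1 and chr5:90903649-90903898 for Cxcl2, from RefSeq.
Cxcl1: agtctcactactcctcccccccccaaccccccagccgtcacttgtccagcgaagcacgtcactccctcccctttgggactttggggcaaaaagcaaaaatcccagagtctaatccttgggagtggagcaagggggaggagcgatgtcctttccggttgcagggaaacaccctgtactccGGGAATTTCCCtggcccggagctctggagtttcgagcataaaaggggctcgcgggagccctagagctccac
Cxcl2: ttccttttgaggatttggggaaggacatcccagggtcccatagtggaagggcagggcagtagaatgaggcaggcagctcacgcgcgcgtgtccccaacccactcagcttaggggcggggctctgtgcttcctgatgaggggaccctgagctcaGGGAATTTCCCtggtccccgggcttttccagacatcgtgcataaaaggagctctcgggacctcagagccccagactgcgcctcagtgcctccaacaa
The match reads as a consensus on both strands, which overlap by all but 1 base. The consensus was found in 3 of the 6 windows of the ligands and in 7.25% of 32851 windows of 250 bases. TTNNGCAA, for C/EBP proteins, was found in 0 of the 6 and in 9.56% of all windows, GAGGAA, for ETS proteins, in 1 of the 6 and 23.3%, TGANTCA, for AP-1, in 1 of the 6 and 6.75%, and the TATA box TATAAA in 1 of the 6 and 12.4%.

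Cxcl1 (1457644_s_at), also known as KC, stood at 33.9, 28.4 and 36.4 in Runx1-KO 1, 2 and 3 and at 15.2, 16.5 and 16.03 in Control 1, 2 and 3. The arrays of each group lay close together and the groups did not overlap, but the signal was low, with 1 of 3 Control arrays above background. It was at least 1.77-fold higher in Runx1-KO, with a fitted log2 difference of 1.04 ± 0.18 (n = 3 per group, limma adjusted p = 0.154). This was the lowest adjusted p of the 10 ligands. The other probe sets of Cxcl1 differed by 1.14 ± 0.36 (1419209_at) and 1.07 ± 0.34 (1441855_x_at), without overlap, although the first was at background in both groups. The second was above background in 2 of 3 Runx1-KO and 0 of 3 Control arrays, and against the limits it was at least 1.03-fold higher.

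Cxcl2 (1449984_at), the MIP-2 gene, had an intensity of 1020.5, 98.4 and 152 in Runx1-KO 1, 2 and 3 and of 3547, 307 and 140.3 in Control 1, 2 and 3. Array 1 was the brightest of each group, by 8.35-fold over the geometric mean of the other Runx1-KO arrays and by 17.1-fold over that of the other Control arrays. The spread within each group thus exceeded the difference between the groups, which was -1.11 ± 1.40 on the log2 scale (n = 3 per group, limma adjusted p = 0.784). The difference was 0.26 without Control 1 and -0.76 without both arrays numbered 1.

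The receptor Cxcr2, like Cxcl1, had a higher mean in Runx1-KO. Its intensity was 125, 125 and 71.0 in Runx1-KO 1, 2 and 3 and 17.5, 13.9 and 15.7 in Control 1, 2 and 3, where 1 of 3 arrays was above background. It was at least 5.84-fold higher in Runx1-KO (fitted log2 difference 2.72 ± 0.28, n = 3 per group, limma adjusted p = 0.0523). Cxcr2 passed at 0.05 under 7 of the 15 alternatives, with an adjusted p of 0.0110 to 0.0475 in those 7. It did not pass under the others, where the limma adjusted p was 0.127 without Runx1-KO 1 and 0.337 with a block for the replicate number, for example. Of the 11 measured neutrophil markers, Cxcr2 among them, 8 were higher in Runx1-KO without overlap and 0 lower, against 9.17% and 11.7% of all genes. Their summed intensity was 16578 to 19169.8 against 8626 to 13283. Most of it was S100a8 and S100a9, at 6478 and 6455 of the 19169.8 in Runx1-KO 1 and at 5432 and 5150 of the 13283 in Control 1. Of the 11, 10 were above background on every array. Their part in the Cxcl1 difference was not tested.

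Cxcl12 (1417574_at), the SDF-1 gene that stromal cells of the marrow express, gave 57.2, 26.2 and 19.4 in Runx1-KO 1, 2 and 3 and 5.21, 84.1 and 65.7 in Control 1, 2 and 3. Control 1 alone was below background, whereas Control 2 and 3 were the brightest of the 6 arrays. The log2 difference of 0.01 ± 1.10 (n = 3 per group, limma adjusted p = 0.9997) therefore averaged over opposed values, and it was -1.27 without Control 1. A second probe set (1448823_at) had the same order in Control, at 5.07, 48.9 and 24.6, and was below background in all 3 Runx1-KO arrays. The remaining one (1439084_at) was at background on all 6 arrays.

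Of 10 stromal and endothelial markers, 4, Col3a1, Cdh5, Kdr and Dcn, were at background on all 6 arrays, and 0 separated the groups. Their summed intensity of 326 to 779 in Runx1-KO and 519 to 953 in Control was mostly Vcam1 in Control 1, where that gene gave 825 of the 953. Pdgfrb, a receptor of mesenchymal cells that was above background on every array, stood at 20.3, 32.5 and 51.3 in Runx1-KO 1, 2 and 3. In Control 1, 2 and 3 it was 24.8, 164 and 109. Like Cxcl12 it was the lowest of the Control arrays in Control 1, but in Runx1-KO its order was the reverse of that of Cxcl12. The other markers above background on every array differed from it in Control. Vcam1 was highest in Control 1 (825, 257 and 523) and Col1a1 lowest in Control 2 (27.6, 26.2 and 38.2). The part of these markers in the Cxcl12 values was not tested. Cxcr4, the receptor of Cxcl12, was bright on every array, at 1381, 2253 and 2340 in Runx1-KO 1, 2 and 3 and 2602, 2435 and 2528 in Control (-0.38 ± 0.25, n = 3 per group, limma adjusted p = 0.576). The groups of Cxcr4 did not overlap, and Runx1-KO 1 was the lowest array, without which the log2 difference was -0.13.

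Cxcl16 (1449195_s_at) lay near background throughout. Its intensity was 9.17, 9.79 and 13.2 in Runx1-KO 1, 2 and 3, all under the limits of those arrays, and 17.7, 19.2 and 18.8 in Control 1, 2 and 3, of which 2 were above theirs. The groups did not overlap, and against the limits Cxcl16 was at least 1.01-fold lower in Runx1-KO (fitted log2 difference -0.81 ± 0.21, n = 3 per group, limma adjusted p = 0.246). Its receptor Cxcr6 stood at 8.68, 19.3 and 12.2 in Runx1-KO 1, 2 and 3 and at 27.8, 27.2 and 10.9 in Control 1, 2 and 3. It was below background in all 3 Runx1-KO arrays and above it in 2 of 3 Control arrays. The groups overlapped, because Control 3 lay below Runx1-KO 2 and 3, and by group means against the limits Cxcr6 was at least 1.10-fold lower (limma adjusted p = 0.591). The sheddases Adam10 and Adam17, which release Cxcl16 from the membrane, were at 1484 to 1686 and at 365 to 520 in Runx1-KO, against 1347 to 1639 and 432 to 523 in Control.

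Over all 17 probe sets of the ligands, 6 were lower in Runx1-KO without overlap and 3 higher, against 11.8% and 8.64% of all 34958 probe sets. The 3 higher were all of Cxcl1, and both probe sets of Ccl9 were among the 6 lower. Probe sets of the same gene are not separate ligands. None of the 17 passed the limma test over all probe sets, where the lowest adjusted p was 0.183 and 0.0858% of probe sets passed, while 9 had an unadjusted p under 0.05, against 12.3% of all probe sets. Probe sets of a ligand shared their sign for Cxcl1, Cxcl16 and Ccl9 and differed in sign for Ccl6 and Cxcl12. In the plot of probe set differences the CC ligands other than Ccl6 lie left of 0.

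**Figure D3:**
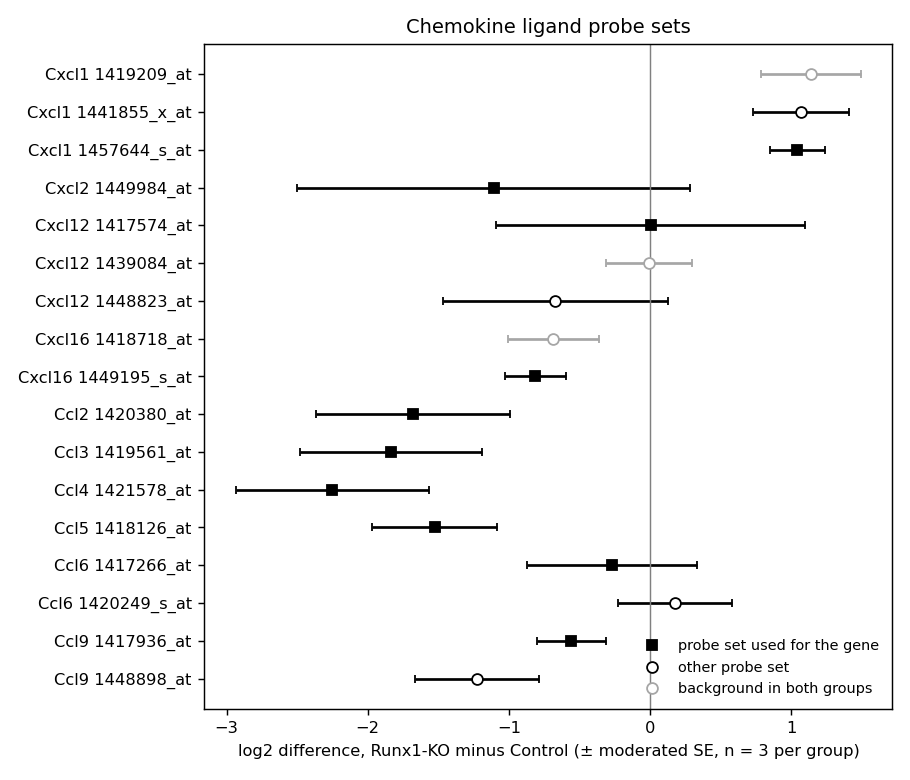
Log2 difference, Runx1-KO minus Control, of each of the 17 probe sets with its moderated standard error (n = 3 arrays per group). Squares mark the probe set used for the gene, open circles the others, and grey those at background in both groups; the 3 Cxcl1 probe sets lie between 1.04 and 1.14 and both Ccl9 probe sets lie below 0.

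Within its group, array 1 was the brightest for many ligands. Control 1 was the highest of the Control arrays for 7 of the 10 ligands, against 37.1% of all genes. Runx1-KO 1 was the highest of its group for 6 of the 10, against 39.8% of all genes. Over all 6 arrays the 2 differed. Control 1 was the highest for 7 of the 10, against 16.8% of all genes, and Runx1-KO 1 for 0, against 21%. Genes of NF-kB signalling and its inducers were often brightest on the same arrays. Of 12 measured, 10 were highest in Control 1 among the Control arrays, against 37.1% of all genes. In Runx1-KO 1, 7 were highest among its group, against 39.8% of all genes. Runx1-KO 1 was also the array with the high Gapdh ratio, and Control 1 the one with the high erythroid signal. Tnfaip3, an NF-kB target that ends the signal, stood at 481, 188 and 172 in Runx1-KO 1, 2 and 3 and at 891, 289.5 and 285 in Control 1, 2 and 3 (-0.75 ± 0.60, n = 3 per group, limma adjusted p = 0.643, and -0.20 without Control 1). The part of this shared brightness in the ligand differences was not tested. Without both arrays numbered 1, an omission chosen after seeing the data, the log2 difference was -2.33 for Ccl3, -2.29 for Ccl4, -1.76 for Ccl2, -1.72 for Cxcl12, -1.15 for Ccl5, -0.76 for Cxcl2, -0.74 for Cxcl16, -0.40 for Ccl9, -0.17 for Ccl6 and 0.98 for Cxcl1.

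**Figure D4:**
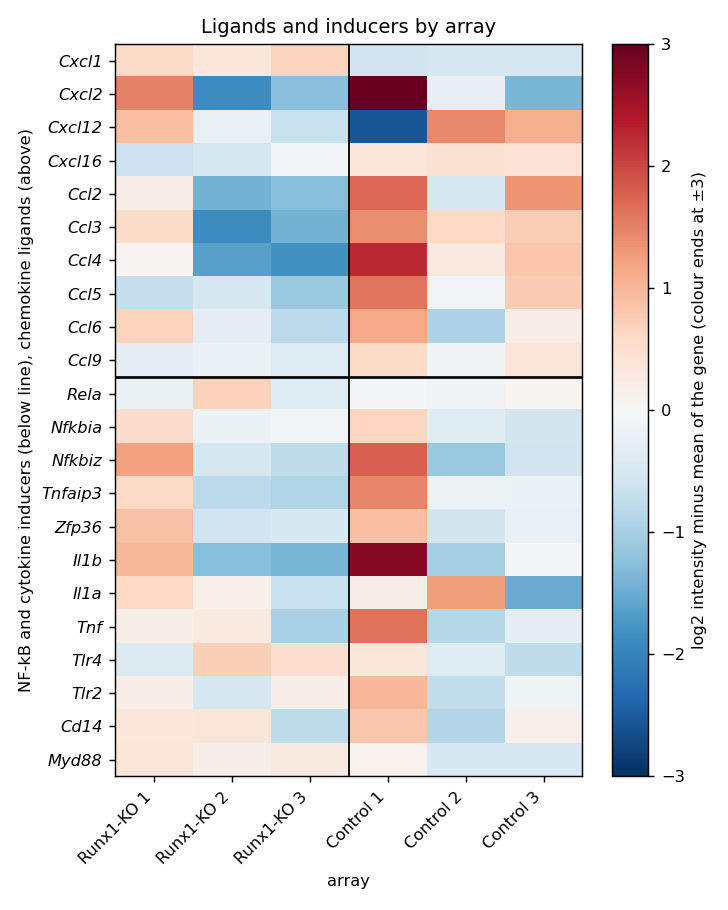
Log2 intensity on each array minus the mean of the gene, for the 10 chemokine ligands above the line and 12 genes of NF-kB signalling and its inducers below it, with red above and blue below the mean and colours ending at 3. Array 1 of both groups is red for Cxcl2, Nfkbiz, Tnfaip3, Zfp36 and Il1b, while Cxcl12 is lowest in Control 1.

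Of the 12 NF-kB and inducer genes, 0 passed the limma test, 0 had an unadjusted p under 0.05, and their median log2 difference was -0.04. Their lowest p belonged to Myd88, the adaptor of Toll-like and interleukin-1 receptors, at 272, 235 and 254 in Runx1-KO 1, 2 and 3 and 226, 152 and 153 in Control (0.54 ± 0.23, n = 3 per group, adjusted p = 0.397). Tlr4, the receptor for bacterial lipopolysaccharide, was at 167, 364 and 313 in Runx1-KO and 281, 171 and 131 in Control, with overlap (0.53 ± 0.41, adjusted p = 0.627).

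Other chemokine ligands were mostly dim. Of 25 measured, 13 were at background on every array, 14 had a higher and 11 a lower mean in Runx1-KO, and 0 passed the limma test (3 at an unadjusted p under 0.05, against 12.6% of all genes), with a median log2 difference of 0.10. Cxcl10, an interferon-induced ligand of Cxcr3, was at 31.8, 39.3 and 43.8 in Runx1-KO 1, 2 and 3 and at 355, 55.5 and 72.5 in Control, without overlap and with the highest value in Control 1 (-1.57 ± 0.70, n = 3 per group, adjusted p = 0.418, and -0.74 without Control 1). Ccl25, which guides T cell precursors to the thymus and gut, had a log2 difference of -0.76 ± 0.30 (adjusted p = 0.370). The platelet ligand Pf4 was at 145, 224 and 85.3 in Runx1-KO against 72.5, 95.6 and 74.4 in Control, with overlap (0.81 ± 0.37, adjusted p = 0.431).

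Among 21 measured chemokine receptors 0 passed the limma test (3 at an unadjusted p under 0.05, against 12.6% of all genes), 9 had a higher and 12 a lower mean in Runx1-KO, and the median log2 difference was -0.25. Ccrl2, a receptor-like protein that presents chemerin, was at 330 in Control 1 and at 30.8 and 30.01 in Control 2 and 3, against 42.3, 13.3 and 21.8 in Runx1-KO with 2 of 3 Runx1-KO arrays above background. The groups overlapped, and the log2 difference was -1.54 ± 1.01 (n = 3 per group, adjusted p = 0.565) and -0.40 without Control 1.

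Of 10 genes that cleave or display chemokines, 0 passed the limma test and 2 had an unadjusted p under 0.05, both higher in Runx1-KO, against 5.62% of all genes. Sdc1, the proteoglycan syndecan-1, which holds chemokines at the cell surface, was at 74.4, 268 and 169 in Runx1-KO 1, 2 and 3 and at 29.1, 18.2 and 42.4 in Control (2.41 ± 0.54, n = 3 per group, adjusted p = 0.212). Mmp8, the neutrophil collagenase, was at 111, 86.3 and 87.3 in Runx1-KO and 49.1, 20.6 and 44.4 in Control (1.41 ± 0.37, adjusted p = 0.251). In neither gene did the groups overlap. The granule protease Ctsg, which trims chemokine ends, was bright in both groups, with a log2 difference of -0.19 ± 0.20 (adjusted p = 0.730).

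The profile of each of the 3 ligands with the widest range among those above background on all 6 arrays was set against 9702 other such genes. Likeness was measured as the distance between log2 levels over the 6 arrays after each gene's mean was taken away, so a smaller value means a closer profile. Nearest to Ccl3 were Dusp6, a phosphatase induced by ERK signalling, at a distance of 0.52, and the myeloid membrane gene Ms4a4c at 0.69. Dusp6 stood at 572, 92.3 and 104 in Runx1-KO 1, 2 and 3 and at 724, 405 and 599.8 in Control 1, 2 and 3. Nearest to Ccl2 were Colec12, a scavenger receptor, at 0.79, and the clock gene Per1 at 0.85. For Cxcl2 the nearest genes were Cpox, an enzyme of heme synthesis, at 1.98, and the immediate early gene Btg2 at 2.001. These distances describe 6 arrays and carry no test.

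The direction of 7 ligands, Cxcl1, Cxcl16, Ccl2, Ccl3, Ccl4, Ccl5 and Ccl9, was kept under all alternatives that were run. With any 1 array left out, the log2 difference was -2.57 to -1.35 for Ccl3, -2.85 to -1.69 for Ccl4, -1.94 to -1.11 for Ccl5, -2.34 to -1.26 for Ccl2, -0.75 to -0.41 for Ccl9 and 0.97 to 1.146 for Cxcl1. Cxcl2, Cxcl12 and Ccl6 turned direction when Control 1 was left out.

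**Figure D5:**
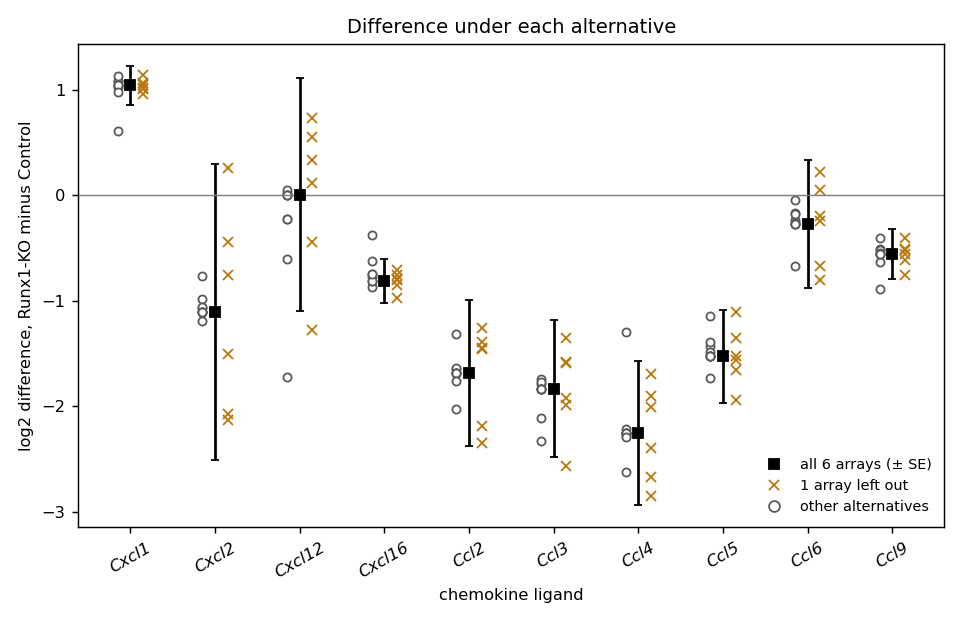
Log2 difference, Runx1-KO minus Control, of each ligand with all 6 arrays (squares, with standard error), with 1 array left out (crosses) and under the other alternatives (open circles). Values for Ccl3 lie between -2.57 and -1.35 and those for Cxcl1 between 0.61 and 1.146, while those for Cxcl2, Cxcl12 and Ccl6 fall on both sides of 0.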

How the data were processed

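Total RNA of 6 leukemias was labelled as cDNA with biotin, per the labels' protocols, and read on 1-colour Affymetrix arrays. The values deposited by the authors are linear probe set intensity values. For probe summary and normalization the steps are not given in the sources used here. A floor of 1 was set before log2. Of 45101 probe sets, 34958 had 1 gene symbol in the platform annotation, and the brightest by mean log2 level stood for each of 18194 genes. Log2 levels of the groups were compared with limma 3.58.1 in R 4.3.3 (lmFit and eBayes, no covariate, Benjamini-Hochberg over all genes at 0.05), tested first on simulated data. A group under background on some arrays received a lower bound, with those arrays raised to their limit. Members, gene lists and named genes were chosen with earlier results of these data known. Named genes were all ligands, their receptors, Runx1, the 3 of lowest p in each pathway list that were above background on all arrays of at least 1 group, and the nearest profiles. Nkg7, Adam10, Adam17, Col3a1 and other genes named as markers or list members were added after their values were seen. That the leukemias were independent is per the labels. Over the 9703 genes above background on every array, same-numbered arrays did not deviate together. The alternatives were quantile normalization, median centring, an offset of 16, a filter on dim genes, the mean of probe sets, a variance trend, array weights, a block for the replicate number, each array left out in turn and, chosen after seeing the data, leaving out both arrays numbered 1.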

Additional observations from a re-analysis of the deposited data

How the results depend on the processing

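Of the ligands tested under each of the 15 alternatives 0 passed, where the filter left 9 of the 10, and so did 0 of their probe sets under the 14 alternatives that could be run on probe sets, where the filter left 11 of the 17. The mean of probe sets gives no value per probe set. The ligand median was -0.96 in the main analysis and ran from -1.15 to -0.69 under the alternatives. Of 149 ligand values under the alternatives, 140 kept their direction. Cxcl12 turned to -0.22 with the offset and with the mean of probe sets, -0.61 with array weights, -0.44 without Runx1-KO 1, -1.27 without Control 1 and -1.72 without both arrays numbered 1. Cxcl2 turned to 0.26 without Control 1, and Ccl6 to 0.22 without Control 1 and 0.05 without Runx1-KO 3. With 1 array left out, Cxcl2 ran from -2.13 to 0.26, Cxcl12 from -1.27 to 0.73 and Ccl6 from -0.80 to 0.22. Ccr1 turned to 0.063 without both arrays numbered 1. Among the receptors 1, Cxcr2, passed with quantile normalization, median centring, the offset, the filter, the mean of probe sets, the variance trend and array weights. Of all genes, 16 passed in the main analysis, 64 with the offset, 34 with the filter, 104 with the variance trend, 71 with array weights, 2 to 3 with 1 array left out and 0 without both arrays numbered 1. The cause was not tested, apart from fewer arrays where some were left out. Over 9703 genes above background on every array, same-numbered arrays had correlations of deviations of -0.01, -0.17 and 0.06. With the replicate block 0 genes passed. The block leaves fewer degrees of freedom, so this count cannot show whether the arrays were paired. Among the ligands it changed the SE from 1.40 to 0.46 for Cxcl2, from 0.69 to 0.25 for Ccl4 and from 0.69 to 0.39 for Ccl2. It also lowered the SE for Ccl3, Ccl5 and Ccl6 and raised it for Cxcl1, Cxcl12, Cxcl16 and Ccl9. Signal near background limits what can be said of Cxcl1, Cxcl16, Ccl4 and Cxcl12.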
